A study of Mus musculus with 2 samples.

Results

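Clustered narrow peaks of acetylated histone H3 (H3ac) are described here: H3ac peaks under 1000 bp wide, starting at position 3100000 or later on their chromosome, with at least 1 other H3ac peak, of any width, within 5000 bp between nearest edges. The rule found 1744 such peaks among the 10486 of the H3ac list. The list also held 7571 isolated narrow peaks (under 1000 bp, same start limit, no other H3ac peak within 5000 bp), 1138 broad peaks of 1000 bp or more and 33 peaks before the start limit. The cells were HL-1, an immortalised mouse atrial cardiomyocyte line that goes on contracting in culture, harvested at maximum density without any treatment or genetic change named in the labels. There were 2 libraries, 1 immunoprecipitated with an antibody against H3ac and 1 against Srf, whose list held 2190 peaks. With 1 library per antibody no value has a replicate check. Neither list holds a score or read count, so the depth behind a peak is unknown.

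Acetylation of histone H3 is a mark of active promoters and enhancers. It sits on nucleosomes, so the nucleosome-poor stretch of an active element, where transcription factors bind, is commonly flanked by acetylated nucleosomes on both sides. Srf (serum response factor) binds the CArG box and drives genes of the contractile apparatus and of the growth response in heart muscle. The Srf list was not used in choosing the clustered peaks. Widths and H3ac gaps were, and are therefore given as a description. All positions are in mm9, and no gene, promoter or DNA sequence was assigned to a peak, because the gene and promoter tables at hand follow another assembly.

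Clustered narrow peaks were as narrow as isolated ones. Their median width was 173 bp (quartiles 125 and 259 bp, range 38 to 999 bp), and that of isolated narrow peaks was also 173 bp (quartiles 130 and 250 bp). Widths from 150 to under 200 bp were the most frequent class of 50 bp, with 418 clustered peaks (24.0%), and 83 clustered peaks (4.76%) were under 50 bp. The 3 widest members measured 999 bp (chromosome 14), 996 bp (chromosome 11) and 995 bp (chromosome 4), and 3 peaks just outside the width limit, on chromosomes 1, 11 and 8, were exactly 1000 bp wide.

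Most clustered peaks came in simple pairs. Linking H3ac peaks whose gaps were 5000 bp or less gave 884 chains that contained a clustered narrow peak: 760 chains of 2 peaks, 89 of 3 and 35 of 4 or more. Only 151 of the 1744 had an H3ac neighbour within 5000 bp on both sides. The nearest neighbour was itself narrow for 1538 clustered peaks and broad for 206, and these broad neighbours had a median width of 1536 bp (1000 to 6016 bp). A broad peak belonged to 195 of the 884 chains. Each clustered peak and its nearest neighbour, counted once, made 1026 pairs, 820 of 2 narrow peaks and 206 of a narrow and a broad peak. Within the 820 narrow pairs the widths of the partners were unrelated (Spearman rho 0.0095, across pairs from 1 library).

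The gap to the nearest neighbour had a median of 1222 bp (quartiles 714 and 2811 bp, shortest 115 bp). Gaps were far from evenly spread. Among all consecutive H3ac peaks, gaps over 500 and up to 750 bp numbered 784 per 1000 bp of gap length and those over 750 and up to 1000 bp numbered 540. The frequency then fell to 156 between 2000 and 3000 bp and stayed between 112 and 146 in every 1000-bp class from 3000 to 10000 bp. Very short gaps were rare as well, with 68 per 1000 bp up to 250 bp. Measured between midpoints, 307 of the 820 narrow pairs (37.4%) were spaced at least 600 and under 1200 bp apart, and the closest 583 bp.

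**Figure D1:**
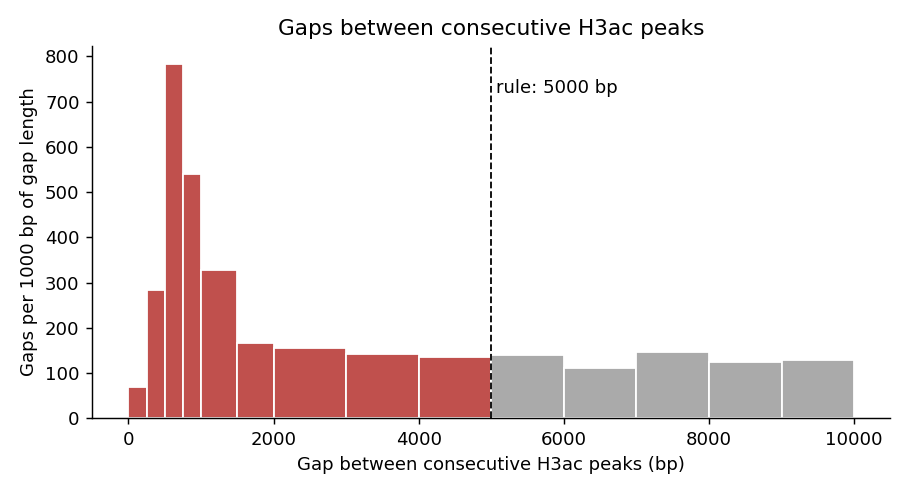
Number of gaps between consecutive H3ac peaks per 1000 bp of gap length (y) against the gap in bp (x), for gaps up to 10000 bp. Red bars lie within the 5000-bp limit, which falls in the flat part of the distribution, while the crowding is at 500 to 1000 bp.

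The limit of 5000 bp therefore cut through a level stretch: of the 1101 gaps within it, 666 (60.5%) were 2000 bp or less. Just inside lay a pair on chromosome 17 (28144932 to 28145091 and 28150091 to 28150634) with a gap of exactly 5000 bp, and a peak on chromosome 6 at 4999 bp. Just outside were a peak on chromosome 4 with a gap of 5003 bp and a pair on chromosome 5 with 5017 bp.

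Clustered peaks were found on all 20 chromosomes of the H3ac list, from 10.1% of the H3ac peaks of chromosome 13 (exact 95% interval 6.87% to 14.2%) to 25.7% on chromosome 19 (21.5% to 30.1%). Chromosomes 17 and 8 followed with 22.5% and 22.0%, whose intervals overlap that of chromosome 19. The share rose with the number of H3ac peaks per Mb (Spearman rho 0.80 across 20 chromosomes of the same library), and closer spacing by itself gives more close neighbours. By megabase, members lay in 536 bins, and the 20 densest bins held 286 of them (16.4%). The densest were chromosome 7 from 52 to 53 Mb with 21 members, chromosome 14 from 26 to 27 Mb with 19, and chromosome 11 from 69 to 70 Mb and chromosome 19 from 7 to 8 Mb with 18 each. These bins were picked after their values were seen.

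At the limits of the rule and without regard to list order, Srf lay near clustered narrow peaks about as often as near isolated ones. The difference varied with the gap limit, the start limit and list order, as given further below. Of the 1744 clustered peaks, 187 had an Srf peak within 500 bp, which is 10.7% (exact interval 9.31% to 12.3%), beside 10.6% of all H3ac peaks. For isolated narrow peaks the share was 10.2% (9.55% to 10.9%), and the difference of 0.50 percentage points had a 95% interval (Newcombe) of -1.04 to 2.18. Overlap with Srf by at least 1 bp was seen at 89 clustered peaks, or 5.10% (4.12% to 6.24%), beside 5.25% of all H3ac peaks and 4.16% of isolated ones, a difference of 0.94 points (-0.11 to 2.16). Another 98 clustered peaks (5.62%) had Srf beside them, 1 to 500 bp away, as did 5.39% of all H3ac peaks. These intervals reflect counting error alone and assume independent peaks, which the peaks of a chain are not. By chromosome the clustered share was the higher one on 11 and the lower on 9. The interval of the difference lay above 0 on chromosomes X and 14 and below 0 on chromosome 5, where 5.15% of 136 clustered peaks stood against 13.7% of isolated ones. These were read from 20 intervals with no adjustment for their number. On X all clustered peaks with Srf within 500 bp belonged to a single chain, described below.

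Across widths of clustered peaks the share with Srf lay in a narrow band with overlapping intervals. It was 11.1% of the 271 under 100 bp (7.59% to 15.4%), 11.5% of the 799 from 100 to under 200 bp, 9.79% of the 480 from 200 to under 500 bp and 9.28% of the 194 of 500 bp or more (5.59% to 14.3%). Isolated peaks of the same width classes gave 10.4%, 10.9%, 9.22% and 9.42%.

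By class of distance to the next H3ac peak, the share with Srf was lowest beyond 50000 bp and next lowest within 1000 bp. Of the 723 narrow peaks with a neighbour within 1000 bp, 8.99% (7.01% to 11.3%) had Srf within 500 bp, an interval that includes the 10.6% of all H3ac peaks. Inside this class there was no steady fall toward the shortest gaps. The share was 10.5% (7.08% to 14.8%) for gaps under 600 bp and 8.11% (5.78% to 11.0%) for 600 to under 1000 bp. The share was 10.5% (7.67% to 13.9%) of the 400 with gaps over 1000 and up to 2000 bp, and 12.9% (10.3% to 15.8%) of the 621 with gaps over 2000 and up to 5000 bp. Narrow peaks outside the rule stayed at that level up to 50000 bp. The 3 successive classes had 12.5% (10.5% to 14.8%), 11.9% (10.2% to 13.8%) and 12.1% (10.8% to 13.5%). The 3064 with no H3ac peak within 50000 bp had 7.41% (6.51% to 8.39%). Against those alone, clustered peaks were higher by 3.31 points (1.63 to 5.08).

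**Figure D2:**
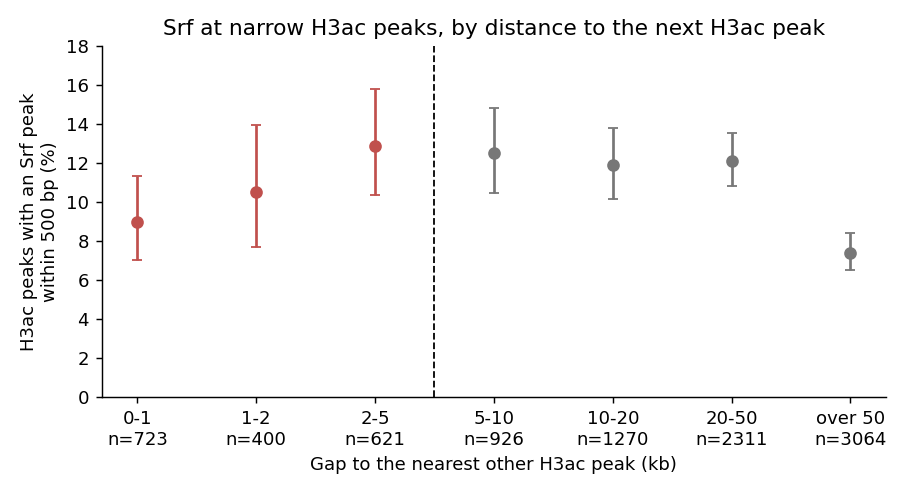
Percent of narrow H3ac peaks with an Srf peak within 500 bp (y, points with exact 95% intervals) by gap to the nearest other H3ac peak in kb (x, with the number of peaks); red points left of the dashed line are the clustered peaks. The shares run from 8.99% to 12.9% on the left of the line, and the lowest value, 7.41%, is that of peaks more than 50 kb from any other.

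Farther out the picture differed. The nearest Srf peak lay over 500 and up to 5000 bp away for 179 clustered peaks, or 10.3% (8.88% to 11.8%), beside 3.32% of all H3ac peaks. Isolated peaks gave 1.62%, a difference of 8.64 points (7.27 to 10.2). For 117 of the 179 (65.4%, 57.9% to 72.3%), the nearest H3ac neighbour had an Srf peak within 500 bp of its own, so that the neighbour stood closer to Srf than the clustered peak did. The other 62 made 3.56% of clustered peaks (2.74% to 4.53%), and an isolated peak has by definition no such neighbour. Counted by chain, 169 of the 884 (19.1%, 16.6% to 21.9%) had Srf within 500 bp of at least 1 of their peaks. This was 15.9% of chains of 2 peaks, 36.0% of chains of 3 and 45.7% (28.8% to 63.4%) of longer ones. The median span rose with it, from 1960 to 6202 and 9450 bp. The shares are adjusted neither for span nor for the number of peaks, and each further peak is another chance for a chain to count.

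Srf peaks lay between paired H3ac peaks more often than beyond them when the pair was close. For each of the 1026 pairs, Srf midpoints in the gap were set against those in a stretch of the same total length beyond the outer edges, divided evenly between the 2 sides. Summed over pairs, the gaps held 115 Srf midpoints and the outer stretches 84, so 57.8% lay in the gap (exact interval 50.6% to 64.7%). A further 91, summed in the same way, lay on the H3ac peaks themselves. In chains of more than 2 peaks a midpoint could be counted for several pairs, so the interval, which assumes independent counts, is only a rough guide. In chains of 2 peaks alone, a setting chosen after seeing the data, 65.4% of 107 midpoints lay in the gap (55.6% to 74.4%). In the 410 pairs with gaps under 1000 bp, 29 midpoints were in the gap and 11 outside, or 72.5% (56.1% to 85.4%). With gaps of 1000 to under 2000 bp it was 27 against 17 (61.4%, 45.5% to 75.6%), and with gaps of 2000 to 5000 bp 59 against 56 (51.3%, 41.8% to 60.7%). The intervals of these classes overlap, and the differences between them were not tested. A point in a short gap is close to both H3ac peaks, while a point beyond the pair is close only to the peak on its side. Srf near each peak independently would thus not give an even split in close pairs. The split it would give was not computed. When any overlap of an Srf peak with the gap or the outer stretches was counted in place of its midpoint, the share over all pairs was 52.7% (46.4% to 58.9%), an interval that includes an even split. In that count an Srf peak reaching across a whole H3ac peak counted both in the gap and outside. Such double counts by themselves move the share toward an even split.

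The place of Srf within the gap is given for close and distant pairs side by side, with no test of the difference. Each gap was divided into 4 equal bins. Of the 29 midpoints in gaps under 1000 bp, 9 lay in each of the 2 middle bins, 5 in the first and 6 in the last. In gaps of 1000 to under 2000 bp the 4 bins held 5, 3, 4 and 15 midpoints in genome order, most of them in the last. In gaps of 2000 to 5000 bp, the first and last bins held 23 and 30 midpoints, and the middle bins 1 and 5. The bins are longer in wide gaps.

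**Figure D3:**
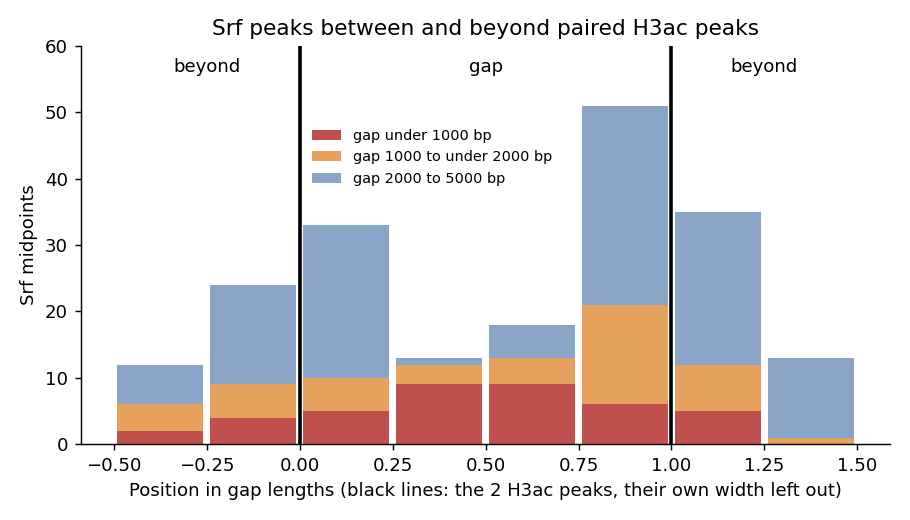
Number of Srf midpoints (y, stacked by gap class) against their position in gap lengths (x), where 0 and 1 are the facing edges of the 2 H3ac peaks inside and their outer edges outside, and the peaks' own width is left out. The 2 middle bins hold 9 and 9 midpoints for gaps under 1000 bp and 1 and 5 for gaps of 2000 to 5000 bp.

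The side on which Srf lay was also read from each Srf peak in turn. Within 500 bp of the 1744 clustered narrow peaks were 188 Srf peaks, 8.58% of the Srf list. Near the 7571 isolated narrow peaks were 834 (38.1%). The median width of the 188 was 183 bp, close to the 183.5 bp of those near isolated peaks. Of the 188, taken relative to the midpoint of the nearest clustered peak, 114 lay toward that peak's nearest H3ac neighbour and 74 away from it. This is 60.6% toward (exact interval 53.3% to 67.7%). Of the 98 that did not overlap the clustered peak, 64 lay toward the neighbour (65.3%, 55.0% to 74.6%). Of the 90 that overlapped it, 50 did (55.6%, 44.7% to 66.0%), an interval that includes an even split. Here too the side toward the neighbour is close to both H3ac peaks when the gap is short, so an even split is not a full baseline. This measure was chosen after seeing the data.

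Clustered peaks beside a broad H3ac peak had Srf more often in the whole list, but the difference depended on the settings. With a broad nearest neighbour, 31 of 206 (15.05%, 10.5% to 20.7%) had Srf within 500 bp. With a narrow one it was 156 of 1538 (10.1%, 8.68% to 11.8%). The difference was 4.91 points (0.37 to 10.6). Without chromosome 8 it was 1.21 points (-3.00 to 7.04), and with broad neighbours of 2000 bp or more in place of 1000 bp it was -0.0085 points (-5.93 to 10.8). Its interval also reached 0 without H3ac peaks under 50 bp (2.65 points, -1.63 to 8.22), with gap limits of 2000 bp (4.77, -0.47 to 11.9) or 10000 bp (2.71, -0.98 to 7.25), and without the 2 chains richest in Srf (4.18, -0.19 to 9.77). The 151 clustered peaks with H3ac neighbours on both sides had Srf in 18.5% of cases (12.7% to 25.7%), against 9.98% of the 1593 with a neighbour on 1 side. That difference of 8.56 points (2.95 to 15.6) fell to 4.72 points (-0.37 to 11.5) when a chain on the X chromosome was left out.

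This X-chromosome chain was the longest by number of peaks and the richest in Srf. It ran from 166416484 to 166437331 and held 10 H3ac peaks in 20847 bp, a broad one of 1538 bp and 9 clustered narrow ones, the narrowest of them 39 bp wide. All 9 overlapped an Srf peak, and 19 Srf peaks lay across the chain. No control, score or read count was at hand to check the calls of this chain in either list. The other 13 clustered peaks of the X chromosome had no Srf peak within 500 bp, which allows a share of up to 23.1% when 3 counts are taken as the limit of a count of 0. The chain alone thus made up the 40.9% of the 22 clustered peaks on X with Srf, beside 1.71% of isolated peaks there. Without it the share with Srf over all clustered peaks was 10.3%.

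The other long chains each had Srf within 500 bp of 0 or 1 of their clustered peaks. Counts this small cannot be set apart from the 10.6% of all H3ac peaks. On chromosome 8 from 122892523 to 122907272, 7 clustered peaks stood with a broad peak of 1428 bp, and 1 of the 7 had Srf within 500 bp. On chromosome 14 from 26271286 to 26301380, 6 clustered peaks stood with broad peaks of 5916 and 1230 bp, and 0 of the 6 had Srf nearby, although 2 Srf peaks lay on the wider broad peak. On chromosome 9 from 44287341 to 44306683 all 6 peaks of the chain were narrow, 62 to 939 bp wide, and 1 had Srf within 500 bp. Another chain on chromosome 8, from 127167187 to 127187049, placed 5 clustered peaks among 3 broad ones of 1257, 3459 and 1617 bp. Srf again lay at 1 of the 5, and further Srf peaks lay on the broad peak of 3459 bp. The remaining 3, on chromosome 19 from 7043975 to 7055790 (5 clustered peaks) and from 7061744 to 7071129 (4), and on chromosome 15 from 85494534 to 85510404 (4), had Srf within 500 bp of none of their 13 members. On chromosome 19 the nearest Srf peak was 59950 bp or more from any member of either chain.

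**Figure D4:**
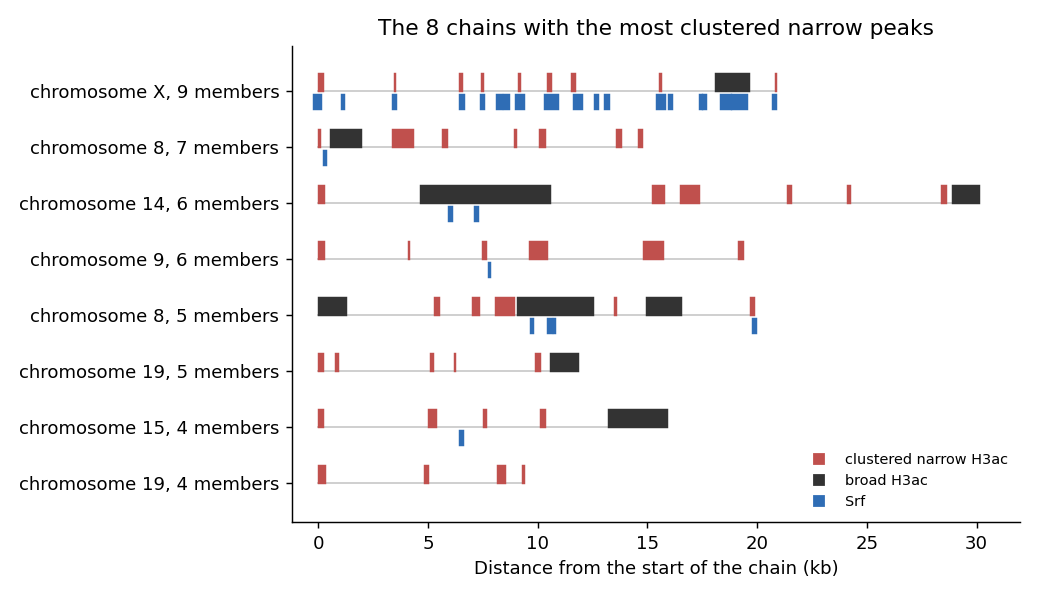
The 8 chains with the most clustered narrow peaks, each drawn to scale from its start (x, kb), with clustered narrow H3ac peaks in red, broad H3ac peaks in black and Srf peaks in blue under the line. Srf peaks line the X-chromosome chain, 19 in all, while the other 7 chains carry between 0 and 4.

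Chains picked for the number of Srf peaks within 500 bp of their clustered peaks showed different layouts. On chromosome 2 from 98502191 to 98507356, 3 clustered peaks of only 39, 39 and 41 bp each lay inside an Srf peak of 566, 333 or 1244 bp, next to a broad H3ac peak of 1210 bp with an Srf peak of 861 bp. These 3 widths are close to the smallest of any clustered peak, 38 bp. No control, score or read count was at hand to check the calls at this locus. On chromosome 16 from 96367136 to 96370747, a pair of clustered peaks of 198 and 227 bp had 3 Srf peaks, all beyond the pair and none in its gap of 3186 bp. On chromosome 8 from 129184390 to 129190982, an Srf peak of 405 bp lay in the gap between clustered peaks of 139 and 113 bp, and an Srf peak of 190 bp overlapped the latter. Also on chromosome 8, Srf peaks were found at the outermost 2 of 3 clustered peaks from 108375709 to 108385144. In a chain from 124657696 to 124666075, 2 Srf peaks lay at a clustered peak of 53 bp.

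No clustered peak had more than 2 Srf peaks within 500 bp, and 21 had 2. The widest of these 21, on chromosome 9 from 44142892 to 44143669, measured 777 bp and lay 308 bp from a broad peak of 1743 bp. Next came a peak of 340 bp on the same chromosome (13630974 to 13631314) and 1 of 303 bp on chromosome 7 (51728646 to 51728949). A peak of 198 bp in the chromosome 16 pair and a peak of 194 bp on chromosome 5 from 149996361 to 149996555 followed. The first 3 overlapped an Srf peak, and the last 2 lay 74 and 35 bp from the nearest.

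In the stretch of chromosome 8 from 122 to 130 Mb, which is crowded with both marks, 89 of the 280 H3ac peaks (31.8%) were clustered narrow peaks. Of these 89, 24 had Srf within 500 bp (27.0%, 18.1% to 37.4%), and of the 132 isolated narrow peaks of the same stretch 43 had (32.6%, 24.7% to 41.3%). In the whole list 1744 of 10486 H3ac peaks were clustered narrow peaks, and 10.6% of all H3ac peaks had Srf within 500 bp. The stretch was picked for its many Srf peaks, so that high shares there follow from the choice. The intervals of the 2 shares overlap.

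Clustered and isolated peaks stood at different places in the order of the H3ac list. Each identifier ends in a number that counts within a chromosome, and what sets the order is not stated. On a scale from the first (0) to the last (100) number of a chromosome, the median place of clustered peaks was 60.8 (quartiles 33.6 and 82.5) and that of isolated ones 47.0 (22.7 and 72.9). The tightest clustered peaks, with gaps under 600 bp, had a median place of 71. Srf was found most often near low numbers, for clustered and isolated peaks alike. The numbers of each chromosome were divided into 4 equal classes. In the first class 22.8% of 307 clustered peaks had Srf within 500 bp (18.2% to 27.9%) and 18.3% of 2090 isolated ones. In the second class it was 12.8% and 9.69%, in the third 6.90% and 6.55%, and in the last 6.18% of 599 clustered and 4.90% of 1733 isolated peaks. The clustered share was thus the higher one in each of the 4 classes, by 0.35 to 4.48 points, with an interval that includes 0 in each. Weighted by the clustered peaks of each class, the difference was 1.99 points, beside 0.50 without regard to the order. No interval was computed for the weighted difference, and the 4 separate intervals do not show whether it would include 0. The part of list order in the Srf comparison was not tested further.

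**Figure D5:**
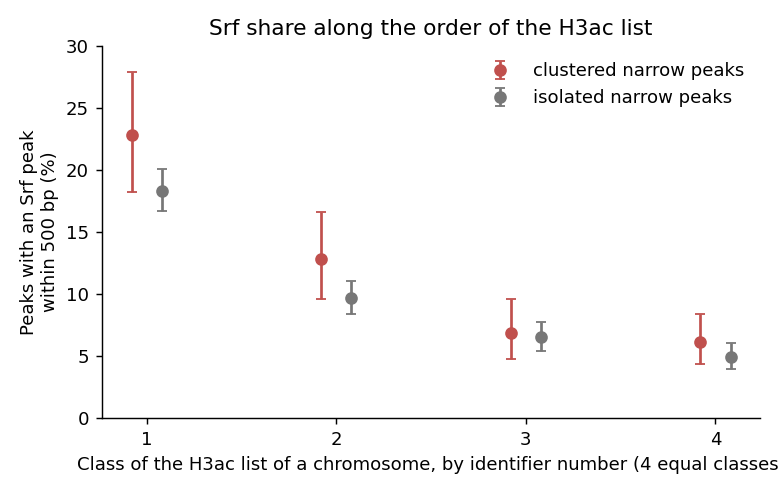
Percent of narrow H3ac peaks with an Srf peak within 500 bp (y, points with exact 95% intervals) by 4 equal classes of the identifier numbers of a chromosome (x), for clustered (red) and isolated (grey) narrow peaks. The clustered share falls from 22.8% in the first class to 6.18% in the last, and the intervals of clustered and isolated peaks overlap in every class.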

How the data were processed

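Chromatin from HL-1 cells was immunoprecipitated for H3ac and for Srf, 1 library each, and the DNA was read on Illumina's Genome Analyzer, according to protocols per the labels. What the authors deposited is, per the file headers, a position in bp for each peak (identifier, chromosome, start, end) and no other value. Per the submitters' processing notes these positions are in mm9. Which aligner, peak caller, control and filters were used is not given in the sources used here. Read depth is unknown, and how close 2 called peaks may lie can depend on the caller.

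The clustered peaks and the measures were chosen with earlier results of these data known. Gaps were taken between nearest edges, and the list was used as called. Shares have exact Clopper-Pearson and differences Newcombe intervals (95%), and an Srf count of 0 is given the limit of 3 counts. No test was run. Named loci were the 8 chains with most members, the 6 with most Srf peaks within 500 bp of a member, the 5 members with most Srf peaks and the 3 peaks on either side of each limit, passing over chromosome 18. Counting was tested on simulated lists of single peaks and widely spaced pairs, with Srf beside the peaks. Close pairs, longer chains and Srf overlapping a peak were not simulated. Gene and promoter tables followed another build (GRCm38) and were not used, so the planned sequence and promoter comparison was not made. Intervals came from scipy 1.17.1, tables from pandas 2.3.3 and figures from matplotlib 3.10.9, under Python 3.11.15.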

Additional observations from a re-analysis of the deposited data

How the results depend on the processing

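Leaving out the chain or the 2 chains with the most Srf peaks, using only chains of 2 peaks and weighting by classes of the identifier were chosen after seeing the data, as were the side of Srf and the comparison of neighbours on both sides with all their settings. Of 69 alternative values, 62 stayed in the interval reported, 6 moved out of it, and 1 both moved out of it and changed sign. In all, the sign of a difference changed in 3, namely the -0.0085, -0.90 and -0.12 points below. The share of clustered peaks with Srf was 5.10% for overlap, 12.4% within 1000 bp and 6.14% with only the wider Srf peaks, as those settings count fewer or more Srf peaks. The share of Srf between pairs was 66.7% with gaps limited to 2000 bp and 65.4% in chains of 2 peaks, and 51.7% (46.6% to 56.8%) with gaps up to 10000 bp. The clustered-minus-isolated difference was 3.31 points against peaks with no neighbour within 50000 bp. Its interval also left 0 with gaps up to 10000 bp (1.45 points, 0.079 to 2.88) and with no start limit (1.64 points, 0.047 to 3.36), while the difference was -0.90 points (-2.62 to 1.07) with gaps limited to 2000 bp and -0.12 points (-1.63 to 1.53) without the 2 chains richest in Srf. The broad-minus-narrow difference was -0.0085 points for neighbours of 2000 bp or more, for which the cause was not tested.

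With each chromosome left out in turn, the share with Srf ranged from 9.76% to 11.2%, and the clustered-minus-isolated difference from -0.088 to 1.23 points. The broad-minus-narrow difference ranged from 1.21 (without chromosome 8) to 5.99 points, and its interval reached 0 in 5 of 20 cases. The difference for neighbours on both sides ranged from 4.63 (without X) to 11.5 points. The share between pairs ranged from 56.4% to 62.1%, its interval reaching an even split in 7 of 20 cases, and the share toward the neighbour from 59.3% to 64.9%. No paired analysis was possible because there was 1 library per antibody. The unknown read depth limits both lists.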
